A study of Mus musculus with 19 samples.

Results

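The genes described here are the cytosolic ribosomal proteins and the companion translation genes whose mRNAs carry a 5′ terminal oligopyrimidine (TOP) element. They were chosen by symbol from the gene names in the lists of translated open reading frames (ORFs): every gene named as a ribosomal protein of the large (Rpl, Rplp) or small (Rps) subunit, with Eef1a1, Eef1b2, Eef1d, Eef1g, Eef2, Rack1, Pabpc1 and Tpt1. This gave 34 of 7266 genes, of which 28 were ribosomal proteins, 14 in each subunit. Eef1g and Tpt1 had no listed ORF and are not analysed here. The members thus cover only those ribosomal proteins for which at least 1 ORF was listed: 18 were listed in LUAD only, 2 in AT2 only (Rps4l among them) and 14 in both.

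A ribosome joins a large and a small subunit, each built of ribosomal RNA and many proteins that are made in matched amounts. A TOP element is a C at the very start of the mRNA followed by an unbroken stretch of C and U. When the kinase complex mTORC1 is active these mRNAs load ribosomes, and when it is off the protein LARP1 holds them at the cap, so that growth signals set the output of the whole family together. In growing lung epithelium and in tumours the family is known to be among the most abundant classes of cytosolic mRNA.

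The samples were C57BL/6 mouse organoids, profiled by ribosome footprinting and by RNA sequencing. They came either from alveolar type 2 (AT2) cells, which make surfactant and renew the alveolar lining, or from tumours of the lung adenocarcinoma (LUAD) kind; the ORF libraries of the tumour carry KP in their titles and lung adenocarcinoma as their source. All were plated for 48 hours in a lung organoid medium on Matrigel-washed plates and were treated for 5 minutes with cycloheximide at 100 µM to hold ribosomes in place. Footprints and RNA each held 3 AT2 and 4 LUAD libraries, and the ORF lists 2 AT2 and 3 LUAD libraries. The series names independent cultures for the ORF part (2 AT2 cultures and 3 tumour-derived organoids); for footprints and RNA no label names separate cultures, so each p-value reflects the spread among these libraries alone, which may be technical. The labels do not spell out the driver alleles of the tumour.

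RefSeq promoter entries (GRCm38.p6) were found for 23 of the 34 members, 28 entries in all. The windows below hold the 30 bases around the annotated start, of which the first 15 lie before it, written on the strand of the gene. They are shown for the members whose RNA passed the test below and that have an entry, and for Rack1, because the tract is the feature that defines the family. Capitals mark the longest C followed by at least 4 more C or T bases, searched on the gene's strand only since the element acts in the RNA.
Rpl14: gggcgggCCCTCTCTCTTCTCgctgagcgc
Rpl4: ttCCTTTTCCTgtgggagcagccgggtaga
Rpl7a: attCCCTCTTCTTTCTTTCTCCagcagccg
Rps9: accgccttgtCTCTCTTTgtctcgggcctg
Rps21: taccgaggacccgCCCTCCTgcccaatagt
Rack1: cggaggccgCTCTTTCTTTTTCTCCacagg
Rplp0: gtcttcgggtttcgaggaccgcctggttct
Rps15: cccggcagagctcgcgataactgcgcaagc
The windows lie at chr9:120571502-120571531 (Rpl14), chr9:64173372-64173401 (Rpl4), chr2:26910792-26910821 (Rpl7a), chr7:3704026-3704055 (Rps9), chr2:180257364-180257393 (Rps21), chr11:48800345-48800374 (Rack1), chr5:115559452-115559481 (Rplp0) and chr10:80292416-80292445 (Rps15), all on the plus strand.

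A tract stood in the window of 16 of the 23 members. By entry, 57.1% of the members' 28 windows held one, against 36.4% of all 32851 promoter windows. By the stricter search at the annotated start itself, 7 of the 28 entries held one, against 2.51% of all entries. The longest tracts belonged to Rpl7a with 19 bases and Rack1 with 16, the 40S protein that docks kinases on the ribosome. Rplp0, Rps15, Eef1b2, Eef2, Rps3, Rpl26 and Rpl7l1 had none in this window, which says only that these letters are absent around the annotated start. Among members whose RNA passed the test below, 5 of 7 with an entry had a tract, and among the other members 11 of 16.

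Footprint depth was 3.03 to 3.83 M estimated counts in AT2 and 4.80 to 14.25 M in LUAD, and RNA depth 4.12 to 10.23 M in AT2 and 27.18 to 33.20 M in LUAD. One AT2 footprint library, number 1, stood apart: a single gene, Mettl26, took 35.98% of its counts. Within each kind the libraries also fell into 2 sets on the first component of their deviations from the group means, which held 61.4% of the variance in footprints and 53.7% in RNA. For footprints, set 1 was AT2 library 1 with LUAD libraries 1 and 2, and set 2 the others; for RNA, set 1 was AT2 libraries 1 and 2 with LUAD libraries 1 and 2. No label names a batch. Of 7 AT2 markers with a paired transcript 6 were tested, and 5 were lower in LUAD in both assays, with Nkx2-1 and Sftpb at or near 0 there; 3 of 4 gut-like markers, Hnf4a among them, were higher. All 4 paired cycling markers (Mki67, Top2a, Ccnb2, Cdk1) were higher in LUAD RNA, with a median log2 fold change of 1.95, and 2 of them in footprints. Their raw RNA counts, not scaled for depth, summed to 924 to 1000 per AT2 library and 17830 to 20110 per LUAD library. AT2 library 3 held 983 at a depth of 4.12 M, and AT2 library 2 held 924 at 10.23 M. Of the epithelial markers Krt8, Krt18 and Cdh1 were lower in LUAD RNA and Epcam did not pass. Of the macrophage and leukocyte markers only Cd14 and Mrc1 were paired, both higher in LUAD. Their raw footprint counts, also not scaled for depth, summed to 10 to 23 per AT2 library and 310 to 1075 per LUAD library. Ptprc, Cd68, Csf1r, Adgre1 and Lyz2 had no paired transcript. The part of these markers in the results below was not tested. In such bulk libraries fewer cells of a type and less RNA per cell cannot be told apart.

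The 34 members together took 7.31, 7.35 and 10.5% of the paired RNA counts in the AT2 libraries and 11.23, 11.15, 12.48 and 11.97% in the LUAD libraries. All 4 LUAD libraries lay above all 3 AT2 libraries, and the AT2 library of set 2 lay closest to them. Of the paired footprint counts the members took 1.01, 3.16 and 3.05% in AT2 and 3.10, 3.00, 4.71 and 4.58% in LUAD. These groups overlapped. Without Mettl26, the first AT2 value was 2.12%. In every library of either tissue the members held a smaller share of the footprints than of the RNA in any library, with 4.71% as the highest footprint share and 7.31% as the lowest RNA share.

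**Figure D1:**
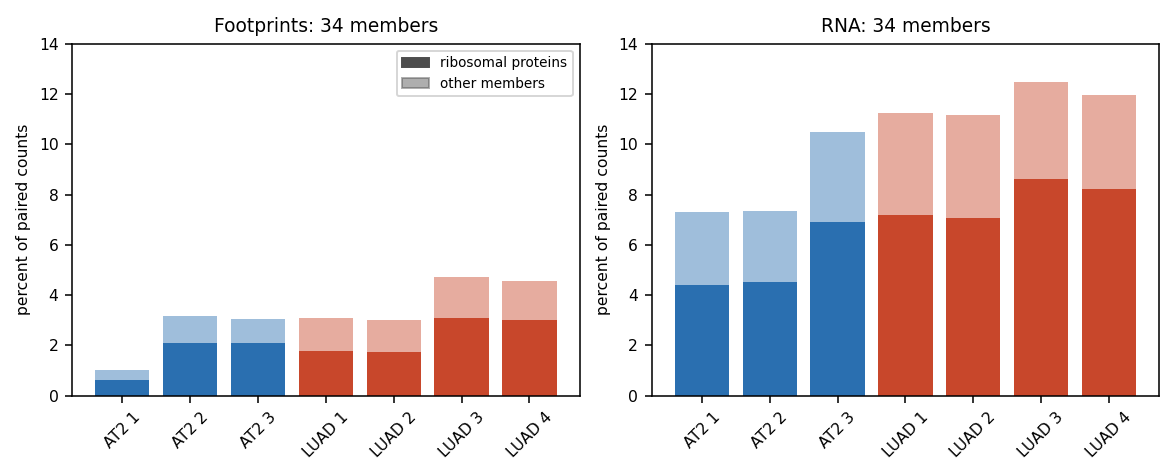
Share of the paired counts (percent, vertical axis) taken by the 34 members in each footprint (left) and RNA (right) library, with ribosomal proteins in full colour and the 6 other members in pale colour; blue is AT2 and red LUAD. RNA shares run from 7.31 to 12.48% and footprint shares from 1.01 to 4.71%.

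The level of a gene per length of transcript (TPM, a share of transcript molecules) orders the members within a tissue. Eef1a1, the elongation factor that brings aminoacyl-tRNA to the ribosome, stood at 8137 ± 687 TPM in AT2 RNA and 9958 ± 1891 TPM in LUAD RNA (SD, n = 3 and 4). Rplp1, an acidic protein of the stalk that recruits the elongation factors, stood at 7676 ± 1058 and 11495 ± 672 TPM. Rps2, at the mRNA entry channel of the small subunit, stood at 6339 ± 1279 and 8443 ± 1981 TPM, and Rps15 at 4320 ± 139 and 6876 ± 182 TPM. These 4 led the order of the 30 members with an annotated ORF in both tissues, with Eef1a1 first in AT2 and Rplp1 first in LUAD. In AT2 the levels of Eef1a1 and Rplp1 did not differ beyond their spread. At the other end, Eef1d, the nucleotide exchange subunit for Eef1a1, stood at 398 ± 61.3 and 380 ± 27.0 TPM, and Rpl7l1, a paralogue of Rpl7, at 62.5 ± 7.68 and 58.7 ± 11.2 TPM. Rps14 was lower still at 9.63 ± 9.31 and 28.0 ± 14.9 TPM, a level that reflects only the 2 transcripts paired with it.

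Members' RNA was higher in LUAD than in AT2 for a part of the family. Of 34 members tested, 9 rose (among them Rpl14, Rpl32, Rpl4, Rpl7a, Rps15, Rps21, Rplp0 and Rps9) and 1 fell (Rps4l), by edgeR's quasi-likelihood test at an adjusted p under 0.05. Over all 6942 genes tested, 19.0% were called higher and 18.0% lower. Of the risers named, Rpl14, Rpl4, Rpl7a, Rps15 and Rplp0 entered the gene table through LUAD ORF lists alone. Rpl32, Rps21 and Rps9 entered through lists of both tissues. LUAD lists alone brought in 18 of the 34 members and 4113 of the 7266 genes. The part of this choice in the RNA counts was not tested. The median log2 fold change was 0.51 over the members and 0.04 over all genes, and 28 of the 34 had a positive value. By subunit, 5 of 12 large-subunit members with an annotated ORF rose (median 0.62) and 3 of 12 small-subunit members (median 0.52). None of the 6 members that are not ribosomal proteins passed (median 0.36), and 0 of them fell.

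Among large-subunit proteins, Rpl14, which lies on the solvent side of the subunit (GRCm38.p6 chromosome 9, 120571517 to 120574653), stood at 1491, 1491 and 2774 CPM (paired counts scaled to a common library size) in AT2 and 3394, 3442, 4108 and 3825 CPM in LUAD. The groups did not overlap, with AT2 library 3 the highest of its group. Its log2 fold change was 0.95 ± 0.24 (SE, n = 3 and 4; edgeR adjusted p = 0.018).

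Rpl32 (chromosome 6, 115805514 to 115808743) stood at 1318, 1348 and 2345 CPM in AT2 and 2590, 2681, 3750 and 3324 CPM in LUAD, a log2 fold change of 0.89 ± 0.25 (edgeR adjusted p = 0.026). Rpl4, which reaches into the exit tunnel with a long extension (chromosome 9, 64173387 to 64178562), stood at 2914, 3119 and 4214 CPM in AT2 and 5130, 5461, 6327 and 6181 CPM in LUAD, a log2 fold change of 0.76 ± 0.17 (edgeR adjusted p = 0.011). In both, the lowest LUAD library lay above the highest AT2 library, and library 3 was again the highest of AT2. Rpl7a (chromosome 2, 26910685 to 26913312) stood at 1576, 1634 and 2645 CPM in AT2 and 2826, 2776, 3851 and 3726 CPM in LUAD, a log2 fold change of 0.76 ± 0.23 (edgeR adjusted p = 0.035).

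Rplp0, the base of the ribosomal stalk on which Rplp1 and Rplp2 sit (chromosome 5, 115559467 to 115563729), stood at 5036, 5030 and 8113 CPM in AT2 and 8471, 8584, 12223 and 9323 CPM in LUAD. These groups lay apart by a narrow margin, 8113 against 8471 CPM. Its log2 fold change was 0.67 ± 0.23 (edgeR adjusted p = 0.048), and the adjusted p was 0.054 with RLE size factors and 0.053 with TMM computed without the members. Leaving out any single library but AT2 library 3 took it to between 0.066 and 0.166. Its partners Rplp1 and Rplp2 had log2 fold changes of 0.65 ± 0.23 and 0.59 ± 0.24 and did not pass (edgeR adjusted p = 0.052 and 0.083).

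In the small subunit, Rps15, a protein of the head (chromosome 10, 80292431 to 80294114), stood at 1895, 1991 and 2641 CPM in AT2 and 3132, 3312, 4154 and 4083 CPM in LUAD. All LUAD libraries lay above all AT2 libraries. Its log2 fold change was 0.75 ± 0.18 (edgeR adjusted p = 0.014). Rps21 and Rps9 also passed, with log2 fold changes of 0.73 ± 0.23 and 0.61 ± 0.18 (edgeR adjusted p = 0.037 and 0.029); both fall outside the rule for named genes and were chosen after their values were seen.

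Of the other small-subunit members, Rps27l, a paralogue of Rps27 known as a target of p53, stood at 329, 376 and 648 CPM in AT2 RNA and 279, 306, 537 and 534 CPM in LUAD RNA. Within each set of libraries both LUAD values lay below the AT2 values, while the groups as a whole overlapped, and the log2 fold change was -0.12 ± 0.33 (edgeR adjusted p = 0.789). With the library set as a term, an alternative chosen after seeing the data, it was -0.27 with an adjusted p of 0.023, and Rpl22 likewise passed at -0.25 (adjusted p = 0.049). Rpl22, a large-subunit protein that also binds structured RNA, stood at 554, 640 and 945 CPM in AT2 and 544, 536, 734 and 689 CPM in LUAD, a log2 fold change of -0.19 ± 0.22 (edgeR adjusted p = 0.533). Rpl7l1 stood at 162, 184 and 264 CPM in AT2 and 167, 154, 279 and 222 CPM in LUAD, a log2 fold change of 0.02 ± 0.26 (edgeR adjusted p = 0.957). Of the other ribosomal proteins with an annotated ORF and enough counts, apart from the stalk, those described here ran from -0.05 ± 0.20 for Rps19 to 0.59 ± 0.25 for Rps15a in RNA, and Rpl8, Rpl13a, Rpl26, Rps2, Rps3 and Rps18 lay between; none passed.

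The elongation members did not pass in RNA. Eef1a1 stood at 18258, 17817 and 20530 CPM in AT2 and 25890, 26348, 23362 and 22446 CPM in LUAD. The groups did not overlap, and the log2 fold change of 0.38 ± 0.13 missed the threshold (edgeR adjusted p = 0.052; 0.036 with the replicate block). Eef1b2, the other exchange subunit for Eef1a1, ran from 1614 to 2830 CPM in AT2 and from 2539 to 2675 CPM in LUAD (log2 fold change 0.35 ± 0.21, edgeR adjusted p = 0.229), and Eef1d from 363 to 651 CPM and from 384 to 548 CPM (0.03 ± 0.25, adjusted p = 0.945). Eef2, which moves the ribosome along the mRNA after each bond, stood at 5396, 5325 and 5545 CPM in AT2 and 5449, 5479, 4810 and 4724 CPM in LUAD, a log2 fold change of -0.08 ± 0.13 (edgeR adjusted p = 0.632). Rack1 stood at 1927, 1993 and 2986 CPM in AT2 and 2897, 2880, 3420 and 3199 CPM in LUAD, a log2 fold change of 0.43 ± 0.19 (edgeR adjusted p = 0.105; 0.039 with the replicate block).

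Pabpc1, the poly(A)-binding protein of the cytoplasm, did not sort by tissue. Its RNA stood at 996, 875 and 4894 CPM in AT2 and 966, 905, 5989 and 5445 CPM in LUAD, so that the libraries of set 2 lay above those of set 1 in both tissues. The log2 fold change between tissues was 0.56 ± 0.86 (edgeR adjusted p = 0.634). Its footprints stood at 465, 288 and 209 CPM in AT2 and 537, 607, 466 and 416 CPM in LUAD. Within each tissue they split by footprint set in the reverse direction, with set 1 the higher.

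The size of the RNA count rests on single libraries. With AT2 library 1 left out 0 members rose (12.3% of all genes), and 6 members had an unadjusted p under 0.05 in that direction. With AT2 library 2 left out the single one that rose was Rps14 (837 of 6993 genes), so that none of the 9 passed in either case. With AT2 library 3 left out 20 rose (25.3% of all genes). Without LUAD library 1, 3 or 4 there were 5, 3 and 3, the last 2 fits both with Rpl14, Rpl4 and Rps15. Over all genes these fits called 1103 of 6880, 933 of 6888 and 924 of 6896 higher. The replicate number of the labels as a block gave 18 higher (20.4%), a fit whose numbers cannot be told apart from the library sets in these values, the library set as a term 20 (28.5%), DESeq2 16 (23.2%) and TMM factors from all transcripts 20 (27.4%). TMM from all transcripts set the median of all genes at 0.24 in RNA (against 0.04) and 0.31 in footprints (against -0.02), so every direction here is relative to the paired genes. Removing a trend on transcript length left a member median of 0.026 against -0.12 over all genes. The part of transcript length in the RNA difference was not tested further.

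**Figure D2:**
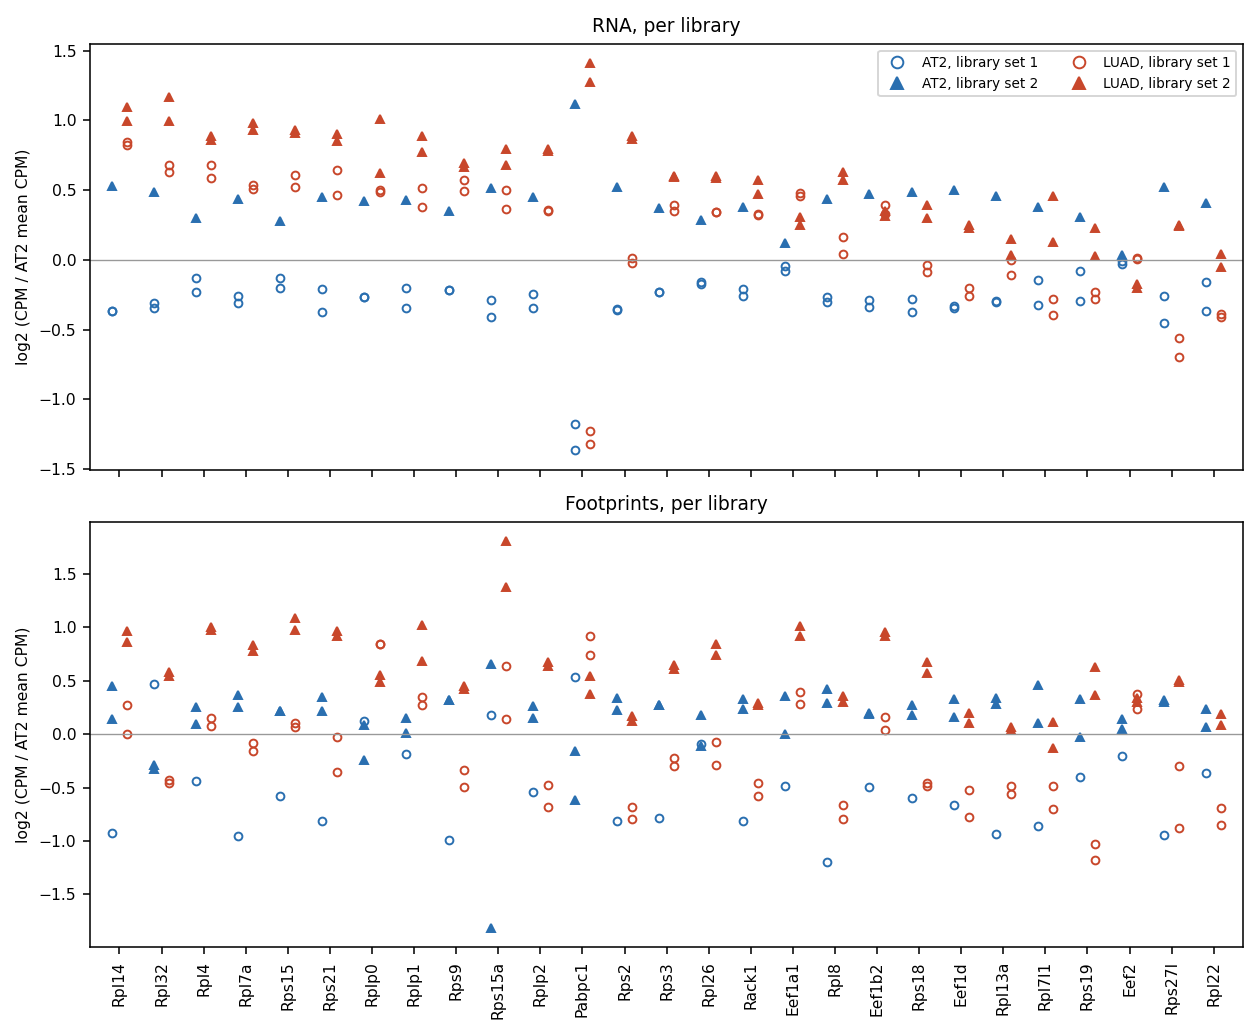
CPM of the members shown in each library over its AT2 mean, on a log2 scale, for RNA (top) and footprints (bottom); blue is AT2, red is LUAD, open circles are library set 1 and filled triangles set 2, and members are ordered by their RNA fold change. Rpl7, Rps10, Rps14 and Rps4l are left out for their low counts. In RNA the open circles of LUAD lie above those of AT2 for most members, and Pabpc1 splits by set in both tissues.

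The difference between library sets was of the same order as that between tissues in RNA, and larger than it in footprints. Between tissues, the median log2 fold change of the members with an annotated ORF was 0.51 in RNA and 0.22 in footprints. Over the 30 members with an annotated ORF, the median of set 2 minus set 1 was 0.71 on the log2 scale in AT2 RNA and 0.34 in LUAD RNA, with 29 and 27 members higher in set 2. In footprints it was 0.87 in AT2 and 0.89 in LUAD, with 26 and 28 members higher in set 2. Over all genes these medians were -0.03, -0.02, 0.00 and -0.03. The sets were found in the same data, so this is a description. Within set 1 alone the median log2 fold change of LUAD against AT2 over the members was 0.61 in RNA and 0.45 in footprints, and within set 2 alone 0.20 and 0.36. Each set holds a single AT2 library in 1 of the 2 assays, whose spread is then taken from the other libraries.

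Footprints of the members differed less clearly between the tissues. Of 33 members tested (Rpl7 had too few counts), 1 rose, Rplp0, and 1 fell, Rps4l, by edgeR's quasi-likelihood test, against 9.47% of 6814 genes called higher and 11.8% called lower. The median log2 fold change was 0.17 over the members and -0.02 over all genes, and 21 of 33 were positive. With the library set as a term, chosen after seeing the data, 14 members rose (20.7% of all genes), among them Eef1a1 (log2 fold change 0.80, adjusted p = 0.0013), Eef1b2 (0.69, adjusted p = 0.0011), Rpl14 (0.78) and Rps15 (0.75), and 2 fell, Rps4l among them.

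Rplp0 footprints stood at 507, 494 and 394 CPM in AT2 and 837, 836, 682 and 653 CPM in LUAD. The groups did not overlap, and within LUAD the libraries of set 1 were the higher ones, unlike most members. The log2 fold change was 0.69 ± 0.19 (SE, n = 3 and 4; edgeR adjusted p = 0.038). Leaving out any library but AT2 library 1 took the adjusted p to between 0.060 and 0.112, and the replicate block took it to 0.079. Rplp1 footprints stood at 249, 313 and 286 CPM in AT2 and 360, 342, 574 and 456 CPM in LUAD, also without overlap, and missed the threshold (log2 fold change 0.61 ± 0.23, edgeR adjusted p = 0.096).

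Eef1a1 footprints stood at 2319, 4150 and 3251 CPM in AT2 and 4273, 3949, 6551 and 6116 CPM in LUAD. The groups overlapped at AT2 library 2 and LUAD library 2, and the log2 fold change was 0.69 ± 0.29 (edgeR adjusted p = 0.133). Eef1b2 footprints stood at 392, 631 and 630 CPM in AT2 and 567, 616, 1071 and 1046 CPM in LUAD (log2 fold change 0.58 ± 0.31, edgeR adjusted p = 0.230). Eef2 footprints stood at 3104, 3943 and 3700 CPM in AT2 and 4654, 4229, 4428 and 4532 CPM in LUAD, every LUAD library above every AT2 library, with a log2 fold change of 0.32 ± 0.19 (edgeR adjusted p = 0.269). Its spread over libraries was the smallest of these 3, and it showed no split by library set in LUAD.

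Pabpc1 footprints had a log2 fold change of 0.66 ± 0.29 (edgeR adjusted p = 0.147) and overlapped at AT2 library 1; without that library the value was 1.02 with an adjusted p of 0.013. Eef1d footprints stood at 369, 654 and 734 CPM in AT2 and 341, 406, 629 and 671 CPM in LUAD (log2 fold change -0.20 ± 0.33, edgeR adjusted p = 0.713). Rack1 footprints stood at 558, 1227 and 1151 CPM in AT2 and 712, 653, 1184 and 1200 CPM in LUAD (log2 fold change -0.06 ± 0.35, edgeR adjusted p = 0.920). In both genes the values split by library set and not by tissue.

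Rps27l footprints stood at 108, 255 and 259 CPM in AT2 and 112, 169, 291 and 295 CPM in LUAD (log2 fold change 0.06 ± 0.42, edgeR adjusted p = 0.940). Rpl22 footprints stood at 356, 537 and 478 CPM in AT2 and 253, 283, 484 and 522 CPM in LUAD (log2 fold change -0.25 ± 0.31, edgeR adjusted p = 0.618). Rpl7l1 footprints stood at 146, 284 and 366 CPM in AT2 and 163, 190, 242 and 287 CPM in LUAD (log2 fold change -0.27 ± 0.33, edgeR adjusted p = 0.609). None of these 3 paralogue-bearing members showed a difference larger than the spread between libraries.

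**Figure D3:**
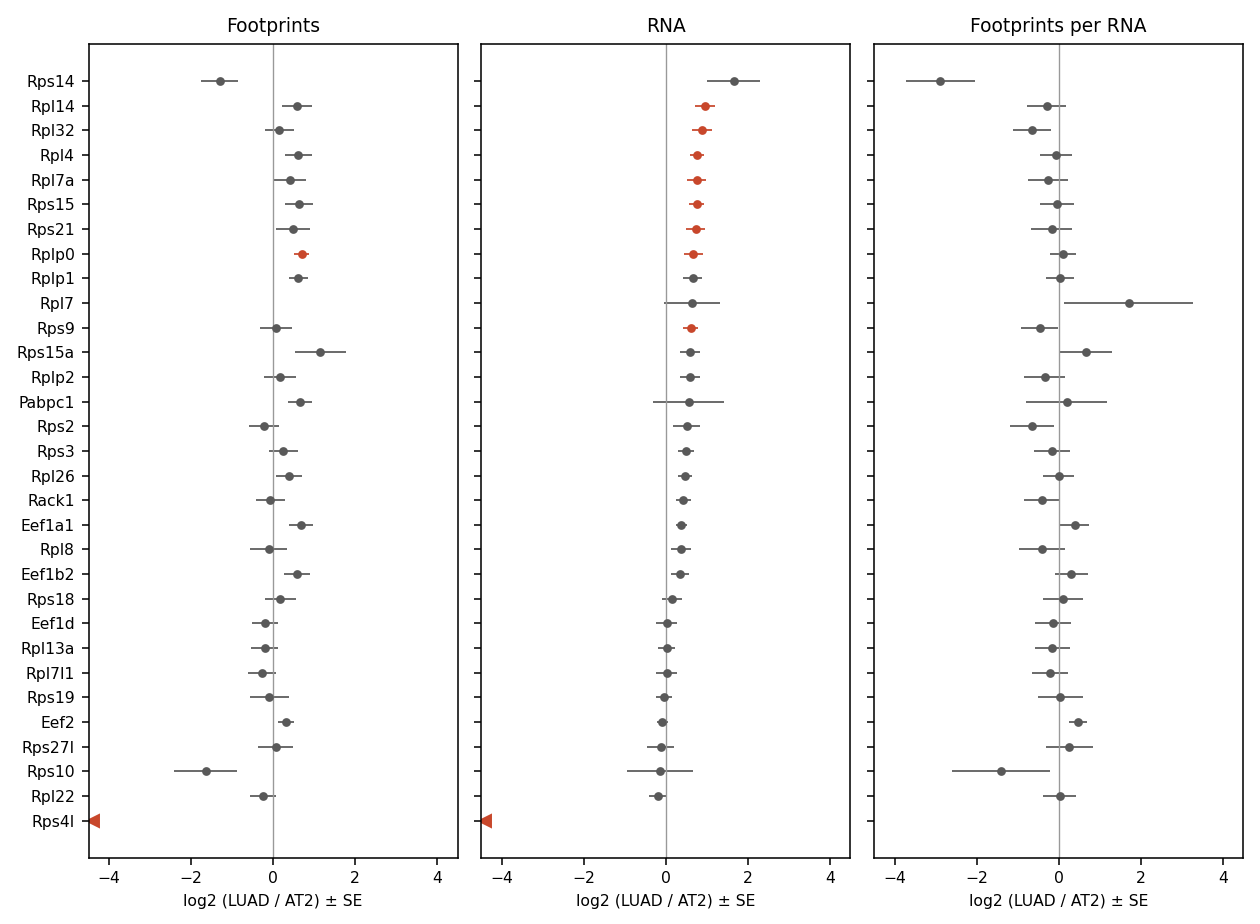
Log2 fold change of LUAD over AT2 with its SE for the members shown, in footprints (left), RNA (middle) and footprints per RNA (right); red points passed the edgeR test at an adjusted p under 0.05, and the triangles mark Rps4l, whose value lies beyond the axis. RNA values lie to the right of 0 for most members shown, with Rplp0 and Rps4l the members past the test in footprints.

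Several members rest on a minor transcript of their gene and are uncertain. Rpl7 was paired only with a transcript that retains an intron, Rps10 only with a minor isoform, and Rps4l only with transcripts of long noncoding or pseudogene type. Rps4l, a copy of the X-linked Rps4x gene (chromosome 6, 148354656 to 148355596, annotated as a transcribed pseudogene), was present in AT2 and nearly absent in LUAD. Its RNA stood at 42.1, 41.6 and 14.4 CPM in AT2, with no count in any of the 4 LUAD libraries. From 624 AT2 counts it was at least 860-fold lower by the 95% limit from counting error (edgeR adjusted p = 0.00069). A floor of 3 counts over the LUAD group would give 1061-fold. Its footprints stood at 31.1, 16.1 and 18.5 CPM in AT2 and held 5 counts over the LUAD libraries against 123 over AT2, which is 145 times less (60.4 to 454 as the 95% interval from counting error; edgeR adjusted p = 0.00084). Rps4l became a member through an ORF listed in AT2 library 1 alone. It was thus selected in the tissue where it is high, and its p-values lend no independent support. Reads of such a copy can be split with Rps4x by the counting, which was not tested.

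Rpl7 RNA stood at 1.92, 4.56 and 2.33 CPM in AT2 and 5.99, 5.92, 4.79 and 1.81 CPM in LUAD (log2 fold change 0.64 ± 0.68, edgeR adjusted p = 0.489). These low values say nothing of the main mRNA of Rpl7, which is not in the sums. Rps14, a protein of the small-subunit platform, has an annotated ORF but was as low, with RNA at 3.83, 12.3 and 2.33 CPM in AT2 and 13.96, 13.5, 15.1 and 37.8 CPM in LUAD. Its footprints stood at 12.5, 50.4 and 38.2 CPM in AT2 and 11.7, 12.9, 12.2 and 18.6 CPM in LUAD. The RNA was thus higher in LUAD in every library and the footprints overlapped, and neither passed (edgeR adjusted p = 0.076 and 0.077). Rps10 RNA stood at 5.01, 0.69 and 10.5 CPM in AT2 and 3.80, 4.14, 4.89 and 6.10 CPM in LUAD, at counts too low to order the tissues (edgeR adjusted p = 0.897).

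Footprint counts of the members also fell on transcripts that are not coding. From 82.6 to 87.6% of the members' footprint counts per library were on coding transcripts, against 97.1 to 98.0% of their RNA counts. By gene, 89.0% of Rpl13a footprints and 94.5% of Rps19 footprints were assigned to a transcript marked for nonsense-mediated decay, and 77.1% of Rps18 footprints to a long noncoding transcript. Coding transcripts held 49.1% of Rack1 footprints, 53.8% of Rps3 footprints and 85.4% of the far more numerous Eef1a1 footprints, against 93.3, 99.3 and 99.7% of their RNA. Short footprints that match several transcripts of a gene can be shared out among them by the estimate, so values were summed to genes; the part of this step in the values was not tested.

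The ratio of footprints to RNA asks whether ribosome load per mRNA differed between the tissues. In edgeR's fit of 14 libraries, with an interaction term between assay and tissue, 0 of 34 members passed, against 0.282% of 7083 genes called higher and 0.438% called lower. At an unadjusted p under 0.05 there were 3, Rps14 and Rps4l among them, all of low counts, and DESeq2 called 3 (Rps14, Eef2 and Rps4l). The median log2 difference was -0.10 over the members and 0.01 over all genes. Its sign changed with the scaling, to 0.18 with library totals alone against 0.39 over all genes, and on leaving out single libraries, from -0.42 without AT2 RNA library 3 to 0.07 without AT2 footprint library 2.

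Eef2 came nearest to a difference among well-covered members, with a log2 difference of 0.48 ± 0.22 (edgeR adjusted p = 0.368). It was 0.45 by DESeq2 (adjusted p = 0.037), and 0.50 when the library set entered as a term (adjusted p = 0.041). The other elongation members were Eef1a1 at 0.39 ± 0.34 and Eef1b2 at 0.31 ± 0.40 (edgeR adjusted p = 0.667 and 0.787). Rplp0, which with Rps4l was past the test in both assays, stood at 0.10 ± 0.31 (edgeR adjusted p = 0.923).

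Within each tissue the members held few footprints for their RNA. Over 6710 genes tested in both assays the median of mean log2 footprint CPM minus mean log2 RNA CPM was 0.02 in AT2 and -0.06 in LUAD. Over the 30 members with an annotated ORF it was -1.29 in AT2 and -1.67 in LUAD, with 27 and 28 of the 30 below the median of all genes. Eef2 stood at -0.60 ± 0.10 in AT2 and -0.20 ± 0.06 in LUAD (SE, n = 3 and 4 in each assay), Eef1a1 at -2.58 ± 0.25 and -2.26 ± 0.19, and Rpl4 at -1.29 ± 0.26 and -1.48 ± 0.27.  Eef1d at 0.34 ± 0.41 and 0.09 ± 0.27 and Rpl7l1 at 0.32 ± 0.45 and 0.11 ± 0.27 lay near the middle of all genes.

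The lowest values belonged to Rps15a, at -5.90 ± 0.77 in AT2 and -5.28 ± 0.38 in LUAD, the percentiles 0.22 and 0.10 of all genes. Its footprint counts were low, at 17, 51 and 10 in the AT2 libraries and 58, 243, 474 and 370 in LUAD. Next came the stalk proteins Rplp0 (-3.67 ± 0.26 and -3.67 ± 0.16) and Rplp1 (-3.75 ± 0.26 and -3.84 ± 0.21). Rplp2, the third stalk protein, stood higher at -1.15 ± 0.35 and -1.69 ± 0.38. The order was alike in both tissues, with Rps15a, Rplp1 and Rplp0 the lowest 3 in each.

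**Figure D4:**
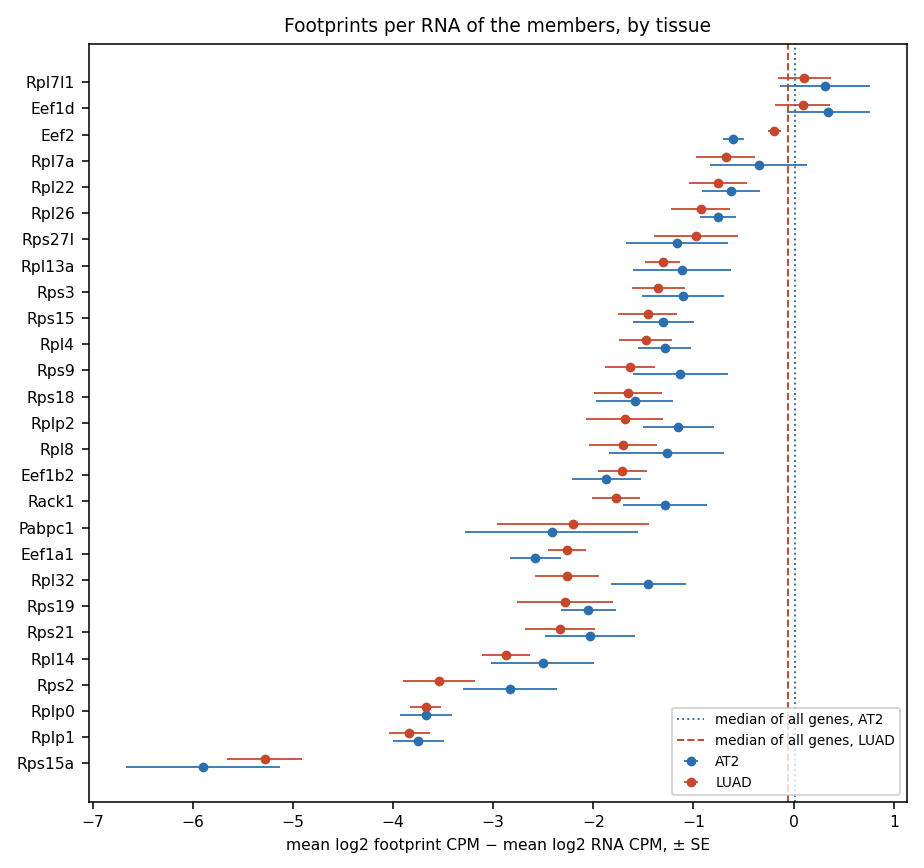
Mean log2 footprint CPM minus mean log2 RNA CPM with its SE for the members shown, in AT2 (blue) and LUAD (red), with the median of all genes in each tissue as a vertical line. Rps15a rests on few footprint counts. Most members lie left of both lines, Rps15a, Rplp1 and Rplp0 farthest, and Eef1d and Rpl7l1 lie near them.

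The lists of translated ORFs give a view by reading frame, with the authors' own values. They held 8 and 26 member ORFs in the AT2 libraries and 80, 51 and 57 in the LUAD libraries, from 4 and 14 and from 27, 21 and 19 genes. As a share of all listed ORFs these were 0.308% (exact 95% binomial interval 0.133 to 0.606) and 0.587% (0.384 to 0.860) in AT2 and 0.598% (0.474 to 0.744), 0.628% (0.468 to 0.825) and 1.06% (0.805 to 1.37) in LUAD. The intervals cover counting error only and overlap between the tissues except for LUAD library 3 against AT2 library 1. Depth differed widely, from 106021 listed P-sites, the positions of the ribosome's peptidyl site, in AT2 library 1 to 4460415 in LUAD library 1, and the number of members listed moved with it; its part in the shares was not tested.

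On annotated member ORFs 52.7% and 44.9% of P-sites were in frame in AT2 and 52.5, 43.0 and 45.8% in LUAD. Over all annotated ORFs the values were 46.4 and 47.4% in AT2 and 47.8, 46.8 and 44.1% in LUAD. In 3 of the 5 libraries the members were thus above all ORFs and in 2 below. P-sites shared by overlapping ORFs of a gene were counted once for each ORF, among members and among all ORFs. In AT2 library 1 the member value came from 6 ORFs of 2 genes, Eef1d and Rps19. The Rps19 ORF, on a decay-marked transcript, had 75.5% in frame. The overlapping Eef1d ORFs had 41.5 to 43.2%, below the 46.4% of all annotated ORFs. The largest ORF, that of Eef2 with 858 codons, was listed in AT2 library 2 and all LUAD libraries, with 189 RPKM (in-frame P-sites per length and library size, as deposited) in AT2 and 165, 193 and 161 RPKM in LUAD. The ORF of Rack1 was listed in the same 4 libraries with 189 RPKM in AT2 and 136, 128 and 116 RPKM in LUAD, and Rack1 was the one member with an ORF in all 5 lists. Rplp0 was listed in LUAD library 1 alone, with 554 of 1062 P-sites in frame.

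Of 118 distinct member ORFs 53 were annotated coding sequences of 30 genes, and 65 were of other kinds. Most of the latter, 49 from 25 genes, lay on noncoding or intron-retaining transcripts of the same genes, such as 1 of 247 codons on a long noncoding transcript of Rack1 that ends where the annotated ORF ends. An ORF of 88 codons upstream of the coding sequence was listed for Rps10, with 22 of 30 P-sites in frame in LUAD library 1. For Rpl14 an ORF of 47 codons overlapped the start of the coding sequence, with 9 of 11 P-sites in frame in LUAD library 2. Downstream ORFs on decay-marked transcripts were listed for Eef1b2, Rps9 and Rps19. The Rps4l ORF of 262 codons was listed in AT2 library 1 with 8 P-sites, 6 of them in frame. Footprints cannot be told apart between an ORF of this kind and the coding sequence that it shares bases with.

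Other genes of the pathway were read from lists. Of 24 tested genes listed for mTORC1, its regulators and other translation or growth control, Myc among them, 2 rose and 2 fell in footprints. In RNA 4 rose and 5 fell. The medians were -0.02 in footprints and -0.00 in RNA. Of all genes, 9.47 and 11.8% rose and fell in footprints and 19.0 and 18.0% in RNA. Eif4ebp1, the cap-binding inhibitor that mTORC1 turns off, rose in RNA (log2 fold change 1.41 ± 0.28, edgeR adjusted p = 0.0058), as did Rheb, the activator of mTORC1 (0.98 ± 0.15, adjusted p = 0.0018), while Tsc2, its brake (-1.22 ± 0.32, adjusted p = 0.018), Rraga and Rragc, which bring mTORC1 to the lysosome for activation (-0.66 ± 0.14 and -0.61 ± 0.15, adjusted p = 0.0091 and 0.015), Eif4ebp2 (-0.72 ± 0.20, adjusted p = 0.022) and Eif4b, a helper of the cap-bound helicase (-0.82 ± 0.13, adjusted p = 0.0024), fell. Eif4b was the one gene of this list past the test in footprints per RNA, higher by 1.14 ± 0.21 (edgeR adjusted p = 0.030). Myc and Cnbp also rose in RNA, by 1.93 ± 0.25 and 1.22 ± 0.32 (edgeR adjusted p = 0.00093 and 0.019). The list thus moved both ways among activators and inhibitors. In footprints Myc (1.40 ± 0.29, edgeR adjusted p = 0.012) and Tia1 (0.74 ± 0.20, adjusted p = 0.035) rose. In the same assay Mtor itself (-1.21 ± 0.18, edgeR adjusted p = 0.0036) and Rraga (-0.82 ± 0.21, adjusted p = 0.029) fell. Footprints of Rheb, Tsc2 and Eif4ebp1 did not pass, at -0.12 ± 0.18, -0.14 ± 0.47 and 0.23 ± 0.27 (edgeR adjusted p = 0.683, 0.865 and 0.577). Of 15 other TOP mRNAs and fused ribosomal proteins, 3 rose and 3 fell in RNA and 1 rose in footprints, with medians of 0.06 and 0.17. The one that rose in both was Lgals1, at 3.32 ± 0.33 in footprints and 4.83 ± 0.18 in RNA (edgeR adjusted p = 0.00061 and 4.96e-06). Of 10 elongation and termination factors with no TOP claim, 1 rose in RNA, Tsfm, and 0 in footprints (medians 0.54 and 0.29; 0 fell).

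The mitochondrial ribosomal proteins, which are made in the cytosol without a TOP element, were the family nearest in function. Of 54 tested in RNA 10 rose and 0 fell, with a median log2 fold change of 0.45, beside 9 of 34 and 0.51 for the cytosolic members and 19.0% and 0.04 for all genes. In footprints 1 rose and 2 fell of 53, with a median of -0.13 beside 0.17 for the cytosolic members and -0.02 for all genes. The difference between these 2 families was not tested. Of 10 p53 targets tested, Rps27l among them, 7 fell in footprints and 0 rose, with a median of -1.98, beside 11.8% of all genes called lower. In RNA 5 of 9 tested fell, with a median of -2.35, beside 18.0% of all genes called lower. Perp alone rose in RNA, by 1.04 ± 0.33 (edgeR adjusted p = 0.040). Rps27l did not pass in either assay.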

How the data were processed

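For footprints and RNA the authors deposited estimated counts for each transcript, from kallisto per the submitters' processing notes; its version and transcript release: not given in the sources used here. TPM values, also deposited, were used for levels per length and in an alternative. ORF lists hold, per the file headers, P-site counts by frame, an RPKM value and a p-value per ORF, on mm10 per the submitters' processing notes. Of 118489 transcripts in the tables, 22509 could be assigned to 7266 genes by way of the ORF lists, so the gene table favours genes translated in LUAD. Since RNA samples carry the protocol of the footprints in the labels, how RNA libraries were prepared is unknown here.

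Counts were summed to genes, rounded, and fitted on all genes with edgeR 4.0.16 in R 4.3.3 (TMM, filterByExpr, robust quasi-likelihood test, Benjamini-Hochberg adjustment over all genes tested, threshold 0.05). Footprints per RNA were the interaction of tissue and assay. SEs were taken from the quasi-F statistic. Alternatives were RLE factors, DESeq2 1.42.0, no filter, TMM from all transcripts or without the members, totals alone, a replicate block, limma 3.58.1 on log2(TPM + 1), a length trend and leaving out each library. Library sets and the removal of Mettl26 were added after seeing the data. Members and lists were chosen with earlier results of these data known. Members named are Rplp0, Rps27l, Rpl22, Rps4l, Rpl7, Rpl7l1, Eef1a1, Eef1b2, Eef1d, Eef2, Rack1 and Pabpc1, and up to 6 per comparison and direction with the largest called change. The latter had to show no overlap and a mean of 50 or more counts per library in the higher group. Counts, shares and medians cover all 34 members; of a few, single values are left out.

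AT2 and LUAD RNA libraries with equal numbers deviated alike (correlations 0.188, 0.153 and 0.244), so RNA numbers passed the check for pairing, but unequal numbers of one library set correlated as well (0.159, 0.176 and 0.237), so that the values show the sets and no pairing of their own; footprint numbers did not pass (0.373, -0.299 and 0.301). No 2 replicates agreed within sampling noise (lowest mean chi-square per gene 5.42). On simulated counts with 200 changed genes the tests recovered 7% of 2-fold and 60% of 4-fold changes in footprints (6814 genes), 22% and 82% in RNA (6942 genes), and 5% and 39% in footprints per RNA (7083 genes).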

Additional observations from a re-analysis of the deposited data

How the results depend on the processing

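The number of members higher in LUAD moved with many choices. In RNA, against 9, it was 16 with DESeq2, 20 with TMM from all transcripts, 14 with library totals alone, 18 with the replicate block, 17 with limma on TPM, 20 with the library set as a term and 23 in set 1 alone, and from 0 to 20 when single libraries were left out. Over all genes, library totals alone called 1400 of 6942 higher, limma on TPM 1276 of 6942 and set 1 alone 2085 of 6927. Leaving out single libraries called 837 to 1770 genes higher. In footprints, against 1, it was 3 with DESeq2 and with TMM from all transcripts, 2 with library totals alone and 0 with the replicate block. Of 6814 genes tested, these fits called 1017, 1141, 842 and 432 higher. The number of members was 14 with the library set as a term (1412 genes) and 18 in set 2 alone (1395 of 6842 genes). On leaving out single libraries it was 0 to 2, beside 360 to 928 genes. Members lower in footprints, against 1, were 2 with DESeq2 and with the set as a term, 4 in set 1 alone, 3 in set 2 alone and 1 to 2 on leaving out single libraries; in RNA they were 3, 2 and 6 with the set as a term, set 1 and set 2, and 1 on leaving out any library. For footprints per RNA, against 0, DESeq2 gave 2 higher and 1 lower, the set as a term 1 and 1, set 1 alone 2 and 5, set 2 alone 4 and 3, and leaving out single libraries 0 to 1 in either direction; the replicate block gave 0.

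The member median of 0.17 in footprints was 0.80 with limma on TPM, -0.02 with the replicate block and from -0.00 to 0.36 on leaving out libraries. That of 0.51 in RNA was 0.026 without the length trend, 0.20 in set 2 alone, 0.46 with the replicate block and from 0.37 to 0.74 on leaving out libraries. That of -0.10 in footprints per RNA was 0.59 with limma on TPM, -0.15 with the replicate block (-0.13 with tissue and number as the block) and from -0.42 to 0.07 on leaving out libraries. The cause was not tested. Over all genes, footprint calls split 645 higher to 803 lower, and 1141 to 500 with TMM from all transcripts, 842 to 243 with library totals alone; RNA calls split 1322 to 1250, and 1899 to 852 with TMM from all transcripts. Footprint calls were also 1412 to 1458 with the set as a term, 1017 to 1066 with DESeq2 and 803 to 143 with limma on TPM. Calls in footprints per RNA, 20 to 31, were 155 to 220 with DESeq2, 44 to 65 with the replicate block, 272 to 246 with the set as a term and 207 to 216 without AT2 footprint library 1.

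Of 611 alternatives over 40 values of named members, 541 kept their side of the threshold, 23 lost and 46 gained the call, and 1, Eef1d RNA in set 2 alone, passed with the opposite sign (-0.29). In simulation the footprint test recovered 7% of 2-fold changes. Smaller changes, such as the member median of 0.17 on the log2 scale, were not simulated, and the simulated counts held no library sets. A member that missed the threshold is thus not shown to be unchanged. Pairing footprints and RNA by number rests on no label.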
